A study of Homo sapiens with 32 samples.

Results

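The uracil base excision repair genes were the 10 genes UNG, SMUG1, TDG, MBD4, APEX1, XRCC1, LIG3, POLB, PARP1 and FEN1, and the question was how far uracil-enriched regions of the genome reached over these genes in each U-DNA-Seq library. The genes belong to this list by their place in the pathway, and no measured value entered the rule. The list was, however, chosen with earlier results of these data known. Each locus was the gene body of GENCODE release 44 with 20 kb on each side, and these 10 loci were set beside the loci of all 20033 protein-coding genes on chromosomes 1 to 22, X and Y. U-DNA-Seq sequences DNA pulled down with a FLAG-tagged uracil-DNA glycosylase sensor (ΔUNG) that binds uracil but cannot cut it, beside the input DNA. The values thus describe uracil, and any other base the sensor binds, in the DNA of the loci, and not expression of the genes. The covered share is the percentage of the bases of a locus that lie in a region, that is, in a stretch where coverage of the enriched over the input DNA, on the log2 scale, passed a threshold set by the authors for that library. A covered share of 0 therefore says that no part of the locus passed the threshold, not that it held no uracil.

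All 14 HCT116 libraries were from a human colorectal carcinoma line that lacks mismatch repair (MMR), or from a subline made MMR proficient by an extra chromosome 3. The WT cells carried no transgene and received no drug. The NT_UGI cells stably expressed UGI, a phage protein that inhibits UNG, from a retrovirus that also encoded EGFP, were sorted for green fluorescence, and received no drug, and the NT_UGI_MMR cells were the same in the MMR proficient subline. The 5FdUR_UGI and 5FdUR_UGI_MMR cells expressed UGI and were exposed for 48 h to 5FdUR (5-fluoro-2'-deoxyuridine, 20 µM), and the RTX_UGI and RTX_UGI_MMR cells, also with UGI, for 48 h to 100 nM raltitrexed (RTX). UGI was thus shared by every drug-treated library and by 4 of the 6 non-treated libraries. Each of the 7 conditions had 2 replicate libraries, giving 8 drug-treated and 6 non-treated libraries. K562, a chronic myelogenous leukemia line, gave 1 library of untreated wild type cells.

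Uracil enters DNA when dUTP is used in place of dTTP during synthesis or when cytosine loses its amino group. Both drugs inhibit thymidylate synthase, which makes dTMP from dUMP, and so favour the incorporation of dUTP. In base excision repair a DNA glycosylase removes the uracil base, APEX1 cuts the strand at the abasic site, POLB fills the gap, FEN1 removes a displaced flap in the long-patch branch, and LIG3 held by the scaffold XRCC1 seals the nick, while PARP1 senses the strand break.

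Regions covered 10.9% to 11.3% of the known bases of the genome in the 6 non-treated libraries and 17.1% to 18.9% in the 8 drug-treated libraries, totals that the authors chose by the threshold. The lowest log2 value in a file was 0.25 to 0.33 in the former and 0.13 to 0.27 in the latter. Both 5FdUR_UGI_MMR libraries stood apart from the other drug-treated libraries at the coding loci, with a median covered share of 7.83% and 4.79% against 13.54% to 40.9% in the other 6.

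Whether a gene start lay in a region differed between members and between drugs, so the RefSeq promoters (250 bases before to 50 after each start, GRCh38.p14) of UNG, MBD4, PARP1 and LIG3 are shown, each being the clearest case of one pattern of coverage. Promoters were read for 8 of the 10 genes, with 2 starts for UNG. The reference held none for SMUG1, and POLB was left out of this step. Each is written 5′ to 3′ on the strand of the gene, and the capitals mark thymine, the base that uracil replaces when dUTP is incorporated.
UNG, upstream promoter (chr12:109097347-109097646, plus strand): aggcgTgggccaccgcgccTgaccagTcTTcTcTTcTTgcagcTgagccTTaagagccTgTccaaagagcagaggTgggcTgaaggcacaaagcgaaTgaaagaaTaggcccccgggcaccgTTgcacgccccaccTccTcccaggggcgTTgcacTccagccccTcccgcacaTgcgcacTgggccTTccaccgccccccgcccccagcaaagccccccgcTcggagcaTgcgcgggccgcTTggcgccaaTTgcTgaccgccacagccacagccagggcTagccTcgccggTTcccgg
UNG, downstream promoter (chr12:109097922-109098221, plus strand): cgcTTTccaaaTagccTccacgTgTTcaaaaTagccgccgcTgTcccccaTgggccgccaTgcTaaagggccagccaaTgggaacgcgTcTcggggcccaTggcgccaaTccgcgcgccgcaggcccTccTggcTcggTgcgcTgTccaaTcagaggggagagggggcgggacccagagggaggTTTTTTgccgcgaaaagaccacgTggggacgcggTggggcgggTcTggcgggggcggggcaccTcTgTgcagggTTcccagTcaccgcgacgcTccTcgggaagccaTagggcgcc
MBD4 promoter (chr3:129439899-129440198, minus strand): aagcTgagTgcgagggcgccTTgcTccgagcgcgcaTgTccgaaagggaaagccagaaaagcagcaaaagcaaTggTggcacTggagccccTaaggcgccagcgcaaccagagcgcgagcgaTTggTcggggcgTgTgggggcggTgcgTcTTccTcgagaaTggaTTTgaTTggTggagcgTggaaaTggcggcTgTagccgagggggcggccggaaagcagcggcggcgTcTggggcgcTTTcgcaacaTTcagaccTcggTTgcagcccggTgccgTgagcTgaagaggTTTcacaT
LIG3 promoter (chr17:34980262-34980561, plus strand): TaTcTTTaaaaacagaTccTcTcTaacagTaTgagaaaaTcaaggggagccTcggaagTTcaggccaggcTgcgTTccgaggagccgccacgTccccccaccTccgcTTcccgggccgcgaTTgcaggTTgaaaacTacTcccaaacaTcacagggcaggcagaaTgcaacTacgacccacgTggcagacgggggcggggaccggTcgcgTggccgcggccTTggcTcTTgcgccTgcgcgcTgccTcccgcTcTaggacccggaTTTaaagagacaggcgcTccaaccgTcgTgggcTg
PARP1 promoter (chr1:226408044-226408343, minus strand): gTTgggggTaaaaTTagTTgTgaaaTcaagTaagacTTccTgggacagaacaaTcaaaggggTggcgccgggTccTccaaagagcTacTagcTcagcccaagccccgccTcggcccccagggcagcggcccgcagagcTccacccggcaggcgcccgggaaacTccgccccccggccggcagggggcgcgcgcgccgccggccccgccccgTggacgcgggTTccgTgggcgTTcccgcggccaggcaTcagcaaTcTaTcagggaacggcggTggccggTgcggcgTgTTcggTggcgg
The upstream UNG promoter held 42 thymines and 22 CpG dinucleotides in its 300 bases, the downstream one 45 and 29, the MBD4 promoter 49 and 29, the PARP1 promoter 39 and 33, and the LIG3 promoter 51 and 26. These thymines are those of the printed strand only. The thymines of the other strand stand opposite its adenines, of which the promoters held 54, 50, 62, 51 and 64 in the same order. The median of all 35116 RefSeq promoters was 62 thymines and 14 CpG. The LIG3 promoter, which no region reached, had the most thymines of the printed promoters and a CpG count between theirs. The APEX1 promoter, which is not printed, held 63 thymines and was reached by regions in 5 libraries. Whether the base counts of a promoter bear on its coverage was not tested. Regions came from coverage smoothed over 5000 bp, so the coverage of a promoter of 300 bases is that of the wider stretch around it. The upstream UNG promoter lay whole in a region in all 4 5FdUR libraries and in RTX_UGI_MMR 2, to 82.0% in RTX_UGI_MMR 1, and in none of the RTX_UGI libraries, while the downstream one was also covered in RTX_UGI 2. The MBD4 promoter lay whole in a region in all 4 RTX libraries and in 5FdUR_UGI 1. The PARP1 promoter lay whole in a region in both 5FdUR_UGI libraries and touched none in the other libraries, and the LIG3 promoter touched none in any of the 15 libraries. Over all coding genes, the GENCODE start lay in a region in all 4 5FdUR libraries for 4.15% of genes, UNG being the 1 member, and in all 4 RTX libraries for 2004 of the 20033 genes, with MBD4 and SMUG1 among them. It lay in a region in both 5FdUR_UGI libraries and no RTX library for 6.87%, PARP1 among them, and in no region of the 15 libraries for 23.4%, LIG3 among them.

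Without drug, the loci of the pathway held almost no regions, with a median of the mean covered share of 0%, as was common over all coding loci, where this median was 0.403% and 41.5% of loci had no region in any of the 6 non-treated libraries. After RTX 8 of the 10 loci were covered to over 50% on average, whereas after 5FdUR PARP1 alone was. UNG, SMUG1, MBD4, APEX1, POLB, FEN1 and PARP1 rose in covered share with the drug, by 41.2 to 71.7 percentage points. TDG, XRCC1 and LIG3 did not pass the test, with differences of 42.7, 18.5 and 1.70 points. No member was covered less after the drug, which 9.59% of all coding loci were. The test was a two-sided exact permutation test of the difference of means over the 3003 ways to choose 8 of 14 libraries, with Benjamini-Hochberg adjustment over all 20033 coding loci and a call at 0.05. By this test 51.5% of all coding loci rose, against 7 of the 10 members. The median difference was 46.5 points over the members and 27.6 points over all coding loci, and the median of the mean covered share in drug-treated libraries was 48.6% and 29.6%. Only UNG and PARP1 had every drug-treated library above every non-treated one, as 24.6% of all coding loci did. Without both 5FdUR_UGI_MMR libraries 9 members were called, all but LIG3, and 62.2% of coding loci. Without the WT libraries, the only HCT116 libraries without UGI, 3 members were called, UNG, FEN1 and PARP1, and 22.1% of coding loci, and SMUG1, MBD4, APEX1 and POLB missed the threshold (adjusted exact permutation p = 0.0564 to 0.0592). Their differences were then 61.7, 58.8, 55.1 and 41.6 points, close to those with the WT libraries, and there were fewer ways to divide the libraries. With regions of a log2 value of at least 0.34, 0 members and 5.64% of coding loci were called, although the differences at MBD4, SMUG1 and PARP1 were still 56.6, 52.2 and 53.4 points (adjusted exact permutation p = 0.0573 to 0.0916). With the highest regions up to 300 Mb in each library PARP1 alone was called, and 9.18% of coding loci.

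**Figure D1:**
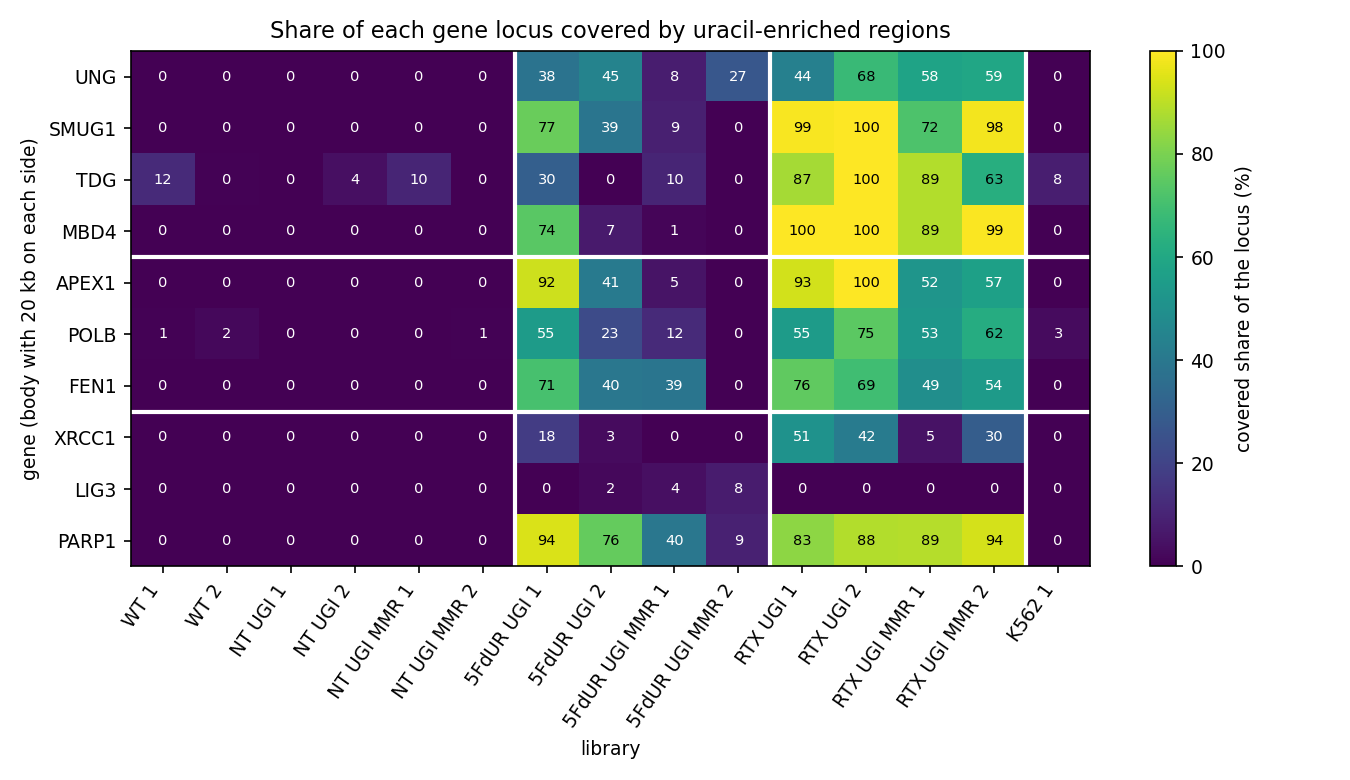
The heat map gives the covered share of each locus (rows, gene body with 20 kb on each side, in percent) in each of the 15 libraries (columns), with white lines between the non-treated, 5FdUR, RTX and K562 libraries and between the glycosylases, the incision and gap-filling enzymes, and the scaffold, ligase and nick sensor. The non-treated columns are dark for every gene but TDG, which reached 12.1%, and the LIG3 row stays dark throughout, at 7.51% or less.

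Of the 4 glycosylases, UNG is the main enzyme that removes uracil from replicating DNA, and the enzyme that UGI blocks. Its gene is on chromosome 12, from 109097597 to 109126725 on the plus strand (GRCh38), and the locus also holds all or part of USP30, ALKBH2 and ACACB. No region touched the locus in the 6 non-treated libraries. It was covered to 38.2% and 44.6% in 5FdUR_UGI, 7.96% and 27.1% in 5FdUR_UGI_MMR, 43.7% and 67.7% in RTX_UGI, and 57.9% and 59.3% in RTX_UGI_MMR. All 8 drug-treated libraries were above all non-treated ones, with a mean of 43.3% ± 19.3 (SD, n = 8) against 0 (adjusted exact permutation p = 0.00548). The position of the regions within the gene differed between libraries. They covered 43.2% and 98.1% of the exonic bases in 5FdUR_UGI, and 19.0% and 77.8% in 5FdUR_UGI_MMR. In RTX_UGI they covered 0% and 83.2% of these bases, and in RTX_UGI_MMR 86.2% and 77.9%. In RTX_UGI 1, with 0% of the exonic bases, 56.2% of the intronic bases were covered. Coverage was smoothed over 5000 bp, so exons are not resolved from the introns beside them.

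SMUG1 removes uracil and oxidised pyrimidines, and its gene body on chromosome 12 (54121277 to 54189008, minus strand) was the longest of the 10, with no other coding gene in the locus. It held no region without drug. The covered share was 77.0% and 38.8% in 5FdUR_UGI, 8.84% and 0% in 5FdUR_UGI_MMR, 99.1% and 100% in RTX_UGI, and 72.1% and 98.1% in RTX_UGI_MMR. A single library, 5FdUR_UGI_MMR 2, was level with the non-treated libraries, and the mean of 61.7% ± 40.8 (SD, n = 8) against 0 passed the test (adjusted exact permutation p = 0.0154). In RTX_UGI 2 the locus lay inside 1 region of 290500 bp.

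MBD4, which removes thymine and uracil mispaired with guanine at CpG sites, is on chromosome 3 (129430947 to 129440179, minus strand), with EFCAB12 and IFT122 partly in the locus. It was covered to 0.203% in NT_UGI_MMR 2 and to 0% in the other non-treated libraries. After 5FdUR the share was 74.4% and 7.22% in the MMR deficient cells, and 1.22% and 0% in the MMR proficient cells. After RTX it was 100% in both RTX_UGI libraries, and 88.6% and 99.4% in RTX_UGI_MMR, so that the RTX libraries lay together near full coverage and the 5FdUR libraries lay far apart. Over all 8 the mean was 58.9% ± 47.2 (SD, n = 8) against 0.0339% ± 0.0829 (SD, n = 6; adjusted exact permutation p = 0.0154). Without any one of the 6 non-treated libraries this call was lost. In RTX_UGI 2 the locus lay inside a region of 470800 bp with a log2 value of 0.67, the highest of any member in any library.

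TDG, which removes thymine and uracil mispaired with guanine and acts in DNA demethylation, was the one member with regions in most non-treated libraries. Its gene is on chromosome 12 (103965822 to 103988874, plus strand), and HSP90B1, UQCC6 and GLT8D2 lie in or reach into the locus. The non-treated shares were 12.1% and 0.476% in WT, 0% and 4.28% in NT_UGI, and 10.5% and 0.317% in NT_UGI_MMR. After 5FdUR they were 30.2% and 0% in the MMR deficient and 10.5% and 0% in the MMR proficient cells, which overlapped the non-treated libraries, whereas after RTX they were 86.7%, 100%, 88.6% and 62.7%, all above them. The mean of all drug-treated libraries, 47.3% ± 42.1 (SD, n = 8), against 4.60% ± 5.41 (SD, n = 6) missed the threshold (adjusted exact permutation p = 0.0585). It passed without 5FdUR_UGI 2 or without 5FdUR_UGI_MMR 2.

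Of the enzymes that act after base removal, APEX1, the main endonuclease at abasic sites, has the shortest gene body (chromosome 14, 20455191 to 20457772, plus strand), with KLHL33, OSGEP, PIP4P1 and PNP in the flanks. No region touched its locus without drug. It was covered to 92.5% and 40.9% in 5FdUR_UGI, 5.17% and 0% in 5FdUR_UGI_MMR, 93.2% and 100% in RTX_UGI, and 52.3% and 56.9% in RTX_UGI_MMR. The MMR deficient libraries were higher than the MMR proficient ones within each drug, and 5FdUR_UGI_MMR 2 was level with the non-treated libraries. The mean was 55.1% ± 38.9 (SD, n = 8) against 0 (adjusted exact permutation p = 0.0246).

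POLB, the polymerase that fills the single-base gap, is on chromosome 8 (42338454 to 42371808, plus strand) with IKBKB, DKK4 and VDAC3 in the locus. Its non-treated shares were 0.682% and 2.04% in WT, 0% in both NT_UGI libraries, and 0% and 0.545% in NT_UGI_MMR. After the drug they were 54.8% and 22.9% in 5FdUR_UGI, 11.8% and 0% in 5FdUR_UGI_MMR, 54.9% and 74.8% in RTX_UGI, and 52.8% and 62.0% in RTX_UGI_MMR. Apart from 5FdUR_UGI_MMR 2, every drug-treated library was above the highest non-treated one, and the mean of 41.8% ± 26.6 (SD, n = 8) against 0.545% ± 0.795 (SD, n = 6) passed the test (adjusted exact permutation p = 0.0154).

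FEN1, the flap endonuclease, has a body of 4328 bp on chromosome 11 (61792911 to 61797238, plus strand), and its locus holds all or part of MYRF, TMEM258, FADS1 and FADS2. The locus was free of regions without drug, and was covered to 71.1% and 39.7% in 5FdUR_UGI, 38.8% and 0% in 5FdUR_UGI_MMR, 75.8% and 69.3% in RTX_UGI, and 49.4% and 54.3% in RTX_UGI_MMR. The mean was 49.8% ± 24.6 (SD, n = 8) against 0 (adjusted exact permutation p = 0.0122), again with 5FdUR_UGI_MMR 2 alone at the level of the non-treated libraries. The FEN1 body alone was covered to 48.5% in 5FdUR_UGI 1 and 0% in the other 5FdUR libraries, and to 40.2% and 100% in RTX_UGI and 35.3% and 69.96% in RTX_UGI_MMR. Without flanks the FEN1 difference was 36.7 points and missed the threshold (adjusted exact permutation p = 0.0945), and 3 members, UNG, SMUG1 and PARP1, and 33.4% of coding loci were called higher after the drug.

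The scaffold and the ligase had the lowest mean coverage of the members over the drug-treated libraries, and the nick sensor the highest, though not after RTX alone. XRCC1 is on chromosome 19 (43543311 to 43580473, minus strand), in a locus shared with 7 other coding genes. It held no region without drug, and the share was 17.9% and 2.85% in 5FdUR_UGI, 0% in both 5FdUR_UGI_MMR libraries, 50.9% and 41.7% in RTX_UGI, and 5.05% and 29.6% in RTX_UGI_MMR. The mean of 18.5% ± 20.1 (SD, n = 8) against 0 missed the threshold (adjusted exact permutation p = 0.0566), and was called when the share was divided by that of the whole genome in the same library, where 49.2% of coding loci were, or without either 5FdUR_UGI_MMR library. LIG3, the ligase that XRCC1 stabilises, is on chromosome 17 (34980512 to 35009743, plus strand) with CCT6B, ZNF830 and RFFL in its locus. No library of the non-treated cells and none of the RTX-treated cells had a region in it, and after 5FdUR the share was 0% and 2.02% in the MMR deficient and 4.04% and 7.51% in the MMR proficient cells. Its mean of 1.70% ± 2.77 (SD, n = 8) against 0 missed the threshold (adjusted exact permutation p = 0.245). Loci without a region in any RTX library made up 14.2% of all coding loci, and loci without one in the RTX and the non-treated libraries 2.96%.

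PARP1, the poly(ADP-ribose) polymerase that binds strand breaks, is on chromosome 1 (226360210 to 226408154, minus strand) with no other coding gene in its locus, and had the highest mean of the members over both drugs. No region touched the locus without drug. The share was 94.2% and 76.5% in 5FdUR_UGI, 39.7% and 9.27% in 5FdUR_UGI_MMR, 82.9% and 88.4% in RTX_UGI, and 88.7% and 93.7% in RTX_UGI_MMR. All 8 were above the non-treated libraries, with a mean of 71.7% ± 30.8 (SD, n = 8) against 0 (adjusted exact permutation p = 0.00469). This mean was higher than that of 96.6% of all coding loci.

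**Figure D2:**
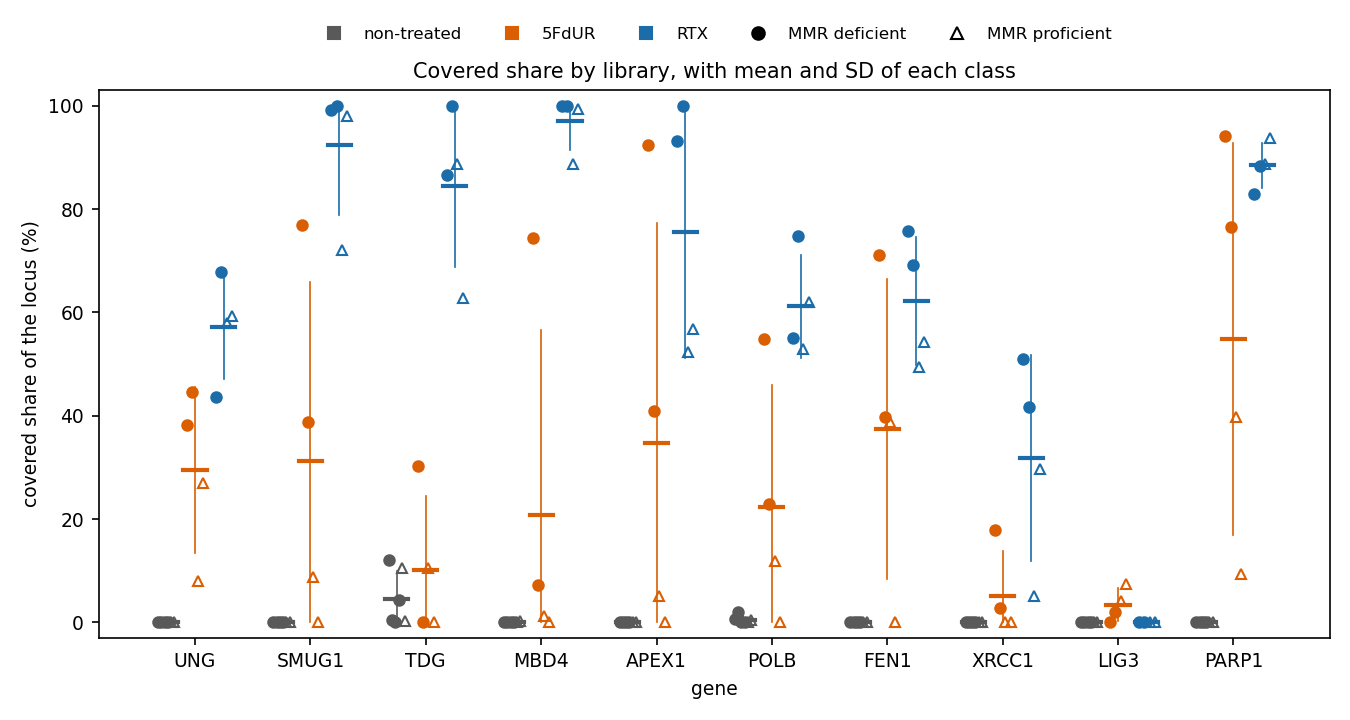
Covered share of each locus in percent (vertical axis) for the 6 non-treated, 4 5FdUR and 4 RTX libraries of HCT116 cells, with filled circles for MMR deficient and open triangles for MMR proficient cells. Horizontal bars are class means and vertical lines are 1 SD, drawn no further than 0 and 100%, and the RTX means are above the 5FdUR means for all genes but LIG3.

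In the order of the mean over drug-treated libraries, PARP1 was followed by SMUG1, MBD4, APEX1, FEN1, TDG, UNG, POLB, XRCC1 and LIG3. No step between neighbours was larger than the larger of their SDs. That SD spans both drugs and both MMR states in the same libraries, so it does not test the order. After RTX alone the order was MBD4 (97% ± 5.59), SMUG1 (92.3% ± 13.47), PARP1 (88.5% ± 4.41), TDG (84.5% ± 15.7), APEX1 (75.6% ± 24.5), FEN1 (62.2% ± 12.4), POLB (61.2% ± 9.94), UNG (57.2% ± 9.97), XRCC1 (31.8% ± 19.9) and LIG3 (0%), each as mean ± SD of 4 libraries. The steps from UNG to XRCC1 and from XRCC1 to LIG3 were larger than the SD, and the others were not.

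The base composition of the loci was set beside these values, since coverage of coding loci varied with their GC content in both classes of libraries. The members had a median GC content of 46.6%, against 44.4% over all coding loci. The TDG locus, with 40.7% the lowest of the members, fell in the class of 39% to 42% GC, where the median coding locus was covered to 3.86% without and 17.4% with drug. From 45% to 48%, the class of UNG, APEX1, LIG3 and PARP1, these medians were 0% and 40.2%, and from 48% to 52%, the class of SMUG1 and XRCC1, they were 0% and 45.7%. LIG3, at 45.2% GC, and XRCC1, at 51.3%, were below the median of their class after the drug, and the other 8 members were above it. The part of GC content in these differences was not tested.

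The 2 drugs were compared next, with MMR status balanced between them, and the values after 5FdUR can include fluorouracil. Coverage after 5FdUR was lower than after RTX at 9 of the 10 loci, by 24.8 points (FEN1) to 76.3 points (MBD4), and higher at LIG3 by 3.39 points. In limma, fitted to the arcsine square root of the share with a mean for each of the 7 conditions, all 10 differences were called, where 50.3% of all coding loci were called lower and 26.1% higher after 5FdUR. In a fit of the drug-treated libraries alone, chosen after seeing the data because the non-treated libraries at 0 add no spread, 46.5% of coding loci were lower and 23.7% higher. FEN1 was then no longer called (limma adjusted p = 0.121), and the other 9 members were. The largest differences were at the glycosylases MBD4 and TDG. The MBD4 mean was 20.7% ± 35.9 after 5FdUR and 97% ± 5.59 after RTX (SD, n = 4 each; limma adjusted p = 7.4e-05, and 0.00297 with drug-treated libraries alone), and the TDG mean was 10.2% ± 14.2 and 84.5% ± 15.7 (SD, n = 4 each; limma adjusted p = 0.000303 and 0.00408). For MBD4 and TDG every 5FdUR library was below every RTX library, as for 28.4% of all coding loci, and the two-sided exact permutation p over the 70 ways to divide 4 and 4 libraries was 0.0286, the smallest that this design allows. For UNG, SMUG1, XRCC1 and POLB the exact p was 0.0571, and for APEX1, PARP1, LIG3 and FEN1 it was 0.114 to 0.171. Between the MMR deficient conditions, so without the 5FdUR_UGI_MMR libraries, the 5FdUR_UGI mean was below the RTX_UGI mean at the same 9 loci, but at PARP1 only by 85.3% against 85.7%, whereas it was 40.8% against 100% at MBD4 and 15.1% against 93.3% at TDG. LIG3, with 0% in all 4 RTX libraries, rested in this comparison on 3 of the 4 5FdUR libraries at 7.51% or less.

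MMR status was compared within each drug, with 2 libraries on each side, so that these tests lean on the spread shared across conditions. After 5FdUR, the MMR proficient cells had a lower mean than the MMR deficient cells at 9 loci, by 9.88 points (TDG) to 64.1 points (APEX1), and a higher one at LIG3 by 4.77 points. The limma fit of all 14 libraries called 8 of these lower and LIG3 higher, where 32.1% and 12.5% of coding loci were called. With drug-treated libraries alone, where 11.6% of coding loci were lower and 7.11% higher, 2 members were still called, APEX1 and PARP1. Leaving out any one of the 6 non-treated libraries from the fit of all libraries gave 4 members lower, and leaving out 5FdUR_UGI 1 gave 2. The APEX1 mean went from 66.7% in 5FdUR_UGI to 2.58% in 5FdUR_UGI_MMR (limma adjusted p = 0.00383, and 0.0432 with drug-treated libraries alone), and the PARP1 mean from 85.3% to 24.5% (limma adjusted p = 0.00272 and 0.0412). After RTX, the APEX1 mean was 96.6% in MMR deficient and 54.6% in MMR proficient cells (limma adjusted p = 0.0410, where 11.1% of coding loci were called lower). It was not called with drug-treated libraries alone (limma adjusted p = 0.220) or without any one library other than the 5FdUR_UGI libraries, and the other 9 members were not called in either fit. PARP1 was at 85.7% and 91.2% after RTX. In the interaction of drug and MMR status, 2 members were called for 5FdUR, APEX1 and PARP1, and 18.3% of coding loci, and 0 members for RTX, with 2.36% of coding loci. Other differences between the chromosome 3 subline and its parent cannot be told apart from MMR status. The total of the regions was alike in the 4 5FdUR libraries, at 17.1% to 17.8% of known bases. The covered share thus compares where regions lay, not the amount of uracil. By dot blot, the paper measured more genomic uracil in MMR proficient than in MMR deficient cells after either drug.

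Restricting the drug comparison to the MMR deficient libraries, 4 drug-treated and 4 non-treated, left 8 members called, XRCC1 among them, each with every drug-treated library above every non-treated one, as 51.2% of coding loci had (adjusted exact permutation p = 0.0460 for each, from the smallest p that 4 against 4 allows). TDG and LIG3 were not called. With the MMR proficient libraries, 4 against 2, no locus can pass, since the smallest exact p is 0.0667. With 5FdUR libraries alone against the 6 non-treated libraries, 2 members were called, UNG and PARP1, and 36.1% of coding loci, and with RTX libraries alone 9 members, all but LIG3, and 66.9% of coding loci.

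Without drug, no member was called by limma for MMR status or for UGI expression, and 0 of the 10 had an unadjusted p under 0.05 in either comparison. At 7 of the 10 loci every non-treated library was at 0%, so neither comparison could call them. At MBD4 and POLB no non-treated library was above 0.203% and 2.04%. These comparisons therefore do not show that MMR status or UGI made no difference at the loci. Over all coding loci 0.00998% were called for MMR status (231 loci at an unadjusted p under 0.05), and 0% for UGI expression (251 loci). The K562 library had a covered share of 8.41% at TDG, within the range of the non-treated HCT116 libraries, of 0.203% at MBD4, level with the highest of them, and of 2.86% at POLB, above their highest value of 2.04%. The other 7 loci held no region in K562, as in the non-treated HCT116 libraries.

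The loci also differed in where the regions lay along the gene. The longest region that touched a member after RTX was 470800 bp (MBD4), and after 5FdUR it was 228300 bp (PARP1 in 5FdUR_UGI 1). At PARP1, the gene start lay in a region of 228300 bp in 5FdUR_UGI 1 and of 8000 bp in 5FdUR_UGI 2, while all RTX libraries had a gap there, although regions covered 83.8% to 92.0% of the gene body in them. At UNG, the start lay in regions of 4700 bp and 14600 bp in 5FdUR_UGI, 3500 bp and 6300 bp in 5FdUR_UGI_MMR, and 7700 bp and 9200 bp in RTX_UGI_MMR. These are the promoters printed above with their thymines in capitals.

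The log2 value of the regions is a second measure, defined only where a region was called, and bounded below by the threshold of the library. Averaged over the region bases of a locus, it was higher at MBD4 than at the other members in 3 of the 4 RTX libraries, at 0.57 and 0.67 in RTX_UGI and 0.58 in RTX_UGI_MMR 1. In RTX_UGI_MMR 2 it was 0.50 at SMUG1, 0.49 at PARP1 and 0.49 at MBD4. At UNG it was 0.35 and 0.23 in 5FdUR_UGI, 0.26 and 0.19 in 5FdUR_UGI_MMR, 0.39 and 0.38 in RTX_UGI, and 0.40 and 0.41 in RTX_UGI_MMR. At PARP1 it was 0.50 and 0.28, 0.28 and 0.23, 0.39 and 0.49, and 0.52 and 0.49 in the same order of conditions. The few regions in LIG3 were weak, with 0.15 in 5FdUR_UGI 2, and 0.22 and 0.15 in 5FdUR_UGI_MMR. For TDG without drug the values were 0.43 and 0.26 in WT, 0.39 in NT_UGI 2, and 0.38 and 0.32 in NT_UGI_MMR.

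The other genes of base excision repair and of cytidine deamination were read from 4 lists with 45 genes in all. By the same exact permutation test 51.5% of all coding loci rose after the drug, and the counts of each list stand beside that share. Of the other 7 DNA glycosylases, 4 rose after the drug, with NEIL1, which removes oxidised bases, at 50.9% ± 31.6 and OGG1, which removes 8-oxoguanine, at 46.0% ± 44.3 (SD, n = 8), both against 0. NEIL3 was not called, with 10.9% ± 13.4 after the drug against 10.6% ± 5.16 without, and MPG, the alkyladenine glycosylase, had 13.8% ± 15 against 0. NEIL2, the gene with the second highest share without drug in this list, was at 0.116% ± 0.283 without and 43.2% ± 19.2 with drug. Of the 11 genes of end processing, nick sensing and ligation 5 rose, and HMCES, which shields abasic sites, at 60.1% ± 42.5 against 0, and HMGB1, at 54.8% ± 25.9 against 1.21% ± 1.03, had the highest shares. TDP1, at 2.79% ± 4.08, and APTX, at 3.54% ± 2.54, had the lowest, against 1.48% ± 1.34 and 1.94% ± 1.41 without drug, and APLF was at 9.47% ± 15.3 against 19.4% ± 2.95 (SD, n = 8 and n = 6), a difference that was not called. APEX2, a second abasic endonuclease, was at 8.51% ± 11.1 against 5.44% ± 3.02 (SD, n = 8 and n = 6) and was not called either.

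Of the 17 genes of long-patch synthesis 10 rose, led by the polymerase subunits POLD2, at 65.9% ± 41.1, and POLE3, at 59.8% ± 44.7, both against 0, while RFC3, of the clamp loader, at 9.18% ± 6.79 against 11.8% ± 6.13, and RPA3, of the single-strand binding complex, at 9.66% ± 7.90 against 8.19% ± 2.95 (SD, n = 8 and n = 6), were not called. Of the 10 genes read here from the family of cytidine deaminases, several of which make uracil from cytosine in DNA or RNA, 9 rose. The 7 APOBEC3 genes among them lie side by side on 1 chromosome and their loci overlap, so they are not separate observations, and APOBEC3A, at 67.5% ± 34.9, and APOBEC3H, at 59.7% ± 43.9, had the highest shares. The lowest were APOBEC4, at 36.2% ± 18.4, and APOBEC2, at 16.8% ± 26 (SD, n = 8), of which APOBEC2 was not called. Without drug the highest shares of this list were those of APOBEC4, at 6.80% ± 3.13, and APOBEC1, at 0.265% ± 0.650 (SD, n = 6). The median of the mean covered share after the drug was 43.2% in the glycosylase list, 9.47% in the end processing list, 38.8% in the long-patch list and 53.5% in the deaminase list, against 48.6% over the members and 29.6% over all coding loci. No gene of these lists was called lower after the drug, which 9.59% of all coding loci were.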

How the data were processed

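U-DNA-Seq gave 15 enriched libraries with a region file each, 14 of HCT116 cells in 7 conditions and 1 of K562 cells, among 32 samples. The other samples and the authors' other file types were not used here. Per the submitters' notes and the study's methods, the authors aligned reads to GRCh38 with BWA 0.7.17-r1194, used SAMtools 1.9-50, Picard and deepTools 3.2.1, and kept 100 bp bins whose log2 ratio of enriched over input coverage, smoothed over 5000 bp, was above a threshold chosen for each library. The deposited log2 value of a region carries no heading and was read as its mean. Read counts are not in the region files, so the depth behind a value is unknown and no counting interval is given. The 7 merged files were used as an alternative.

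Covered shares were computed with Python 3.11.15 and NumPy 2.4.6 for gene bodies of GENCODE release 44 with 20 kb on each side. Coordinates were checked against the chromosome lengths of GRCh38, and no region ran past an end. Groups came from the labels. The replicates were described as biological by the study, and the p-values measure the spread between these libraries. The contrast of drug with no drug was tested by exact permutation of the libraries, and the other contrasts by limma 3.58.1 in R 4.3.3 (arcsine square root, condition means, empirical Bayes with trend), each with Benjamini-Hochberg adjustment over 20033 loci. Both were run on simulated shares that held no exact zeros and no differences between the conditions of a class. That run therefore does not show how the tests perform on shares at 0%. Alternatives were no or 100 kb flanks, shares relative to the genome, the highest regions up to 300 Mb, a log2 value of at least 0.34, regions of at least 5 kb, the log2 value per base, a replicate block, all genes in the adjustment, no transformation, other sets of libraries and leaving out each replicate. Fits without the non-treated libraries, without the drug-treated libraries and without 5FdUR_UGI_MMR were chosen after seeing the data. The named genes were the members and, of each other list, those with the 2 highest and 2 lowest mean shares after the drug and the highest without it. A gene of the deaminase list is not reported here. The members and lists were chosen with earlier results of these data known. Plots were made with matplotlib 3.10.9.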

Additional observations from a re-analysis of the deposited data

Results flagged for a closer look

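In groups of 4 to 10 libraries of a member, 6 values lay far from the others by Dixon's test, out of 40 groups examined, of which 8 were all at 0% and could not give one. In groups that vary, chance gives about 1 in 20. After RTX, RTX_UGI_MMR 1 was low at SMUG1, with 72.1% against 98.1% or more in the other RTX libraries, and at MBD4, with 88.6% against 99.4% or more. After 5FdUR, 5FdUR_UGI 1 was high at MBD4, with 74.4% against 7.22% or less, and at XRCC1, with 17.9% against 2.85% or less. Without drug, NT_UGI_MMR 2 was the one library with a region in the MBD4 locus, at 0.203%, a value that the test marks whatever its size because the other 5 were at 0%, and WT 2 was high at POLB, with 2.04% against 0.682% or less.

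The change after 5FdUR differed between the MMR states at PARP1 (limma adjusted p = 0.0278) and at APEX1 (limma adjusted p = 0.0358), by the interaction of drug and MMR status fitted over all 14 libraries. Both loci were at 0% in the non-treated libraries of either state, so this test rests on the same 4 5FdUR libraries as the comparison within the drug. The interaction was not called for the other 8 members after 5FdUR, nor for any member after RTX, and 18.3% of all coding loci were called for it after 5FdUR and 2.36% after RTX.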

How the results depend on the processing

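The count of 7 members higher after the drug was 3 without flanks, 1 with the highest regions up to 300 Mb, 0 with a log2 value of at least 0.34, 3 without WT libraries and 2 with 5FdUR libraries as the drug group, and 6 to 9 when each replicate was left out. It was 9 with 100 kb flanks, 9 without both 5FdUR_UGI_MMR libraries and 10 with limma, and no setting called a member lower. The share of all coding loci called higher moved too, from 51.5% to 33.4%, 9.18%, 5.64%, 22.1% and 36.1% in the first 5 settings. Without both 5FdUR_UGI_MMR libraries it was 62.2%. For 100 kb flanks, limma and single left-out replicates this share is not given, so those counts are not a result about the members. The same holds for most settings of the drug and MMR comparisons below. The 1 member higher after 5FdUR than after RTX, LIG3, was lost (0) without flanks, with the highest regions up to 300 Mb, with a log2 value of at least 0.34 and with regions of at least 5 kb, and stayed at 1 when each replicate was left out, where 8 to 9 members were lower. For MMR status after 5FdUR, the 8 members lower became 3 without flanks, 2 with the highest regions up to 300 Mb, 0 with a log2 value of at least 0.34, 5 with regions of at least 5 kb and 2 with drug-treated libraries alone, with 0 members higher in each of these, and leaving out each replicate gave 2 to 7 lower and 0 to 1 higher. The members lower were 2 without 5FdUR_UGI 1, 3 without 5FdUR_UGI_MMR 2, 5 without 5FdUR_UGI_MMR 1 and 4 without any one of the 6 non-treated libraries. FEN1 turned in this comparison with the highest regions up to 300 Mb, to 0.17 on the arcsine scale (limma adjusted p = 0.801). For MMR status after RTX, the call of APEX1 was lost, leaving 0 members, without flanks, with 100 kb flanks, relative to the genome share, per base of log2 value, with all genes in the adjustment, with the replicate block and with drug-treated libraries alone, and APEX1 gave way to XRCC1 with a log2 value of at least 0.34, untransformed, and without RTX_UGI_MMR 2. Leaving out each replicate gave 0 to 2 members, with 2, APEX1 and XRCC1, without either 5FdUR_UGI library and 0 without any of the other libraries apart from RTX_UGI_MMR 2. Apart from the fewer libraries or shorter regions that a setting itself leaves, the cause was not tested.

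The replicate numbers were not taken as pairs, since same-numbered deviations correlated from -0.31 to 0.20 over 21 pairs of conditions, with 2 over 0.1. With the replicate number as a block, 7 members were higher after the drug, 9 were lower and 1 higher after 5FdUR than RTX, 7 were lower with MMR after 5FdUR, XRCC1 being lost, and 0 after RTX. The merged files gave a value within 1 SD of the replicate mean for 60 of 70 values of a member in a condition. Many of these values were 0% in both replicates and in the merged file. The merged files also pool the same replicates, so they are not a separate check. For the MMR proficient libraries alone, 4 against 2, the exact test cannot pass (smallest p = 0.0667), and no other test was run. The number of libraries, 2 in each condition, limits every comparison.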
